A study of Drosophila melanogaster with 8 samples.

Results

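The Toll signalling pathway of Drosophila melanogaster was followed through 10 genes, from a recognition protein outside the cell to the transcription factor in the nucleus. The genes were PGRP-SA, psh, spz, Tl, Myd88, tub, pll, cact, dl and Dif, found by the FlyBase identifier that carries each symbol, and they were 10 of 18354 gene rows in the deposited table. The set was chosen by the normalized counts of these genes in the same 8 libraries, so the levels given here describe the genes and no test is applied to them. Each of the 10 genes had 1 row, and no other gene row held identical values.

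The RNA came from wing imaginal discs, sacs of larval epithelium from which the adult wing forms. The control group was nub>mRFP, in which the nub-Gal4 driver expresses a red fluorescent protein, and it held 4 libraries. The other group was nub>mRFP; ecd-RNAi, which carries the same driver and reporter and in addition a hairpin RNA construct (UAS-ecd-RNAi) against ecd, also with 4 libraries. The construct was active throughout development up to dissection, per the labels. Larvae of both groups grew at 25 °C on the same food and were dissected in the third instar on day 7 after the eggs were laid. Each library came from 150 pooled discs and 2 µg of total RNA with ribosomal RNA depletion, and the labels describe the 4 libraries per group as biological replicates. The driver nub-Gal4 is active in the wing pouch and part of the hinge, so each library also holds disc cells that never expressed the construct. Developmental stage beyond the label was not measured. The labels disagree on the sequencer model and on single or paired reads.

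In Toll signalling, soluble recognition proteins and serine proteases respond to microbes or to developmental cues and cut the precursor of the cytokine Spätzle, the product of spz. Cut Spätzle binds the receptor Toll, which gathers the adaptors MyD88 and Tube and the kinase Pelle, and the inhibitor Cactus is then degraded. Dorsal and Dif, the NF-kappaB factors that Cactus held in the cytoplasm, enter the nucleus and act on genes such as those for antifungal peptides. Dorsal is best known for dorsoventral patterning of the embryo and Dif for immunity after embryogenesis, and Toll-type receptors have also been studied in wing discs in competition between unlike cells.

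The transcript of ecd (FBgn0000543), the gene the construct targets, lay between 998 and 1052 normalized counts in the controls and between 1208 and 1462 in libraries labelled ecd-RNAi. Every labelled library was thus above every control, against the direction that the label gives (log2 difference 0.39, SE 0.06, limma adjusted p 0.000245), so that group is called the libraries labelled ecd-RNAi throughout. Whether reads from the hairpin construct itself entered the ecd count was not tested. A normalized count is the authors' read estimate per gene scaled between libraries. Depth was roughly 29500000 to 36500000 reads in controls and 31100000 to 37500000 reads in labelled libraries, and rRNA took 48.9% to 52.9% and 26.6% to 35.2% of the normalized counts. The smallest level distinguishable from 0, taken as 3 reads, averaged 3.42 normalized counts for controls and 2.64 for labelled libraries, for counting error only. Of 12 fixed markers of the wing disc epithelium all were detected, and 10 fell and 2 rose in the labelled libraries at a limma adjusted p under 0.05, where 31.7% of all 9380 tested genes fell and 30.8% rose. One rise, that of dpp (adjusted p 0.0435), was lost without control replicate 1 or 4 or labelled replicate 1, 2 or 3 (adjusted p 0.0810 to 0.115). The largest falls were those of bs (log2 difference -2.24), Dll (-1.06), rn (-1.03) and ap (-0.64), genes that shape the wing field, while wg rose (0.60). The gene nub, whose enhancer drives the construct, was at 11475 ± 517 and 10576 ± 284 normalized counts (SD, n = 4). Its call (log2 difference -0.12, limma adjusted p 0.0269) was lost without control replicate 2, 3 or 4 or labelled replicate 3 or 4, and the sign turned with quantile normalization (0.04). In whole discs, fewer cells of a type and less RNA per cell cannot be told apart.

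The size and direction of the difference varied along the pathway. PGRP-SA, psh and spz, which act before the receptor, and Dif, which acts last beside dl, each had group means more than 5-fold higher in libraries labelled ecd-RNAi. Among all 9380 genes that passed the filter on low values, 3.01% had such a difference. The receptor Tl was lower, cact and dl were moderately higher, and the levels of Myd88, tub and pll overlapped between the groups. Counted by libraries that do not overlap, 6 of the 10 genes were higher and 1 was lower, where 28.0% and 29.2% of all tested genes lay wholly higher or wholly lower. The median log2 difference was 0.45 over the 10 genes and 0.001 over all genes tested. The genes were picked with these values known, so nothing is read from these counts.

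**Figure D1:**
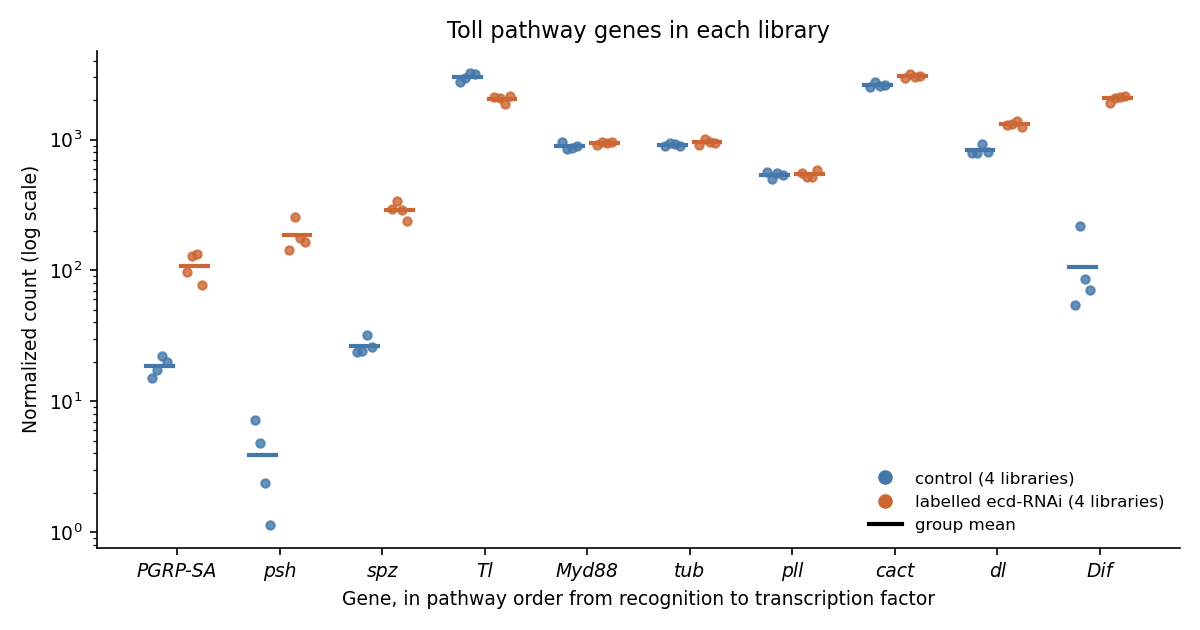
Normalized count (log axis) of the 10 Toll pathway genes in each of the 4 control libraries and 4 libraries labelled ecd-RNAi, in pathway order, with a bar at each group mean. The groups are far apart for PGRP-SA, psh, spz and Dif and lie on top of each other for Myd88, tub and pll, while control replicate 2 stands above the other controls at Dif.

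PGRP-SA (FBgn0030310, chromosome X, 11561643 to 11562779, plus strand, BDGP6) encodes a secreted protein that binds the lysine-type peptidoglycan of Gram-positive bacteria upstream of Toll. It was at 15.0, 17.4, 22.2 and 19.9 normalized counts in control replicates 1 to 4. In libraries labelled ecd-RNAi it was at 96.6, 128.9, 132.4 and 76.9. Every labelled library lay above every control, with replicates 2 and 3 the highest of the labelled group and replicate 4 the lowest. The means were 18.6 ± 3.14 and 108.7 ± 26.7 (SD, n = 4), a 5.84-fold ratio and a difference of 2.46 on the log2(value + 1) scale (SE 0.21). The control values rest on about 65 reads in all (95% Poisson interval 50.2 to 82.9, for counting error only).

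psh (FBgn0030926, chromosome X, 18484487 to 18486921, minus strand) encodes Persephone, a clip-domain serine protease that is itself cut by microbial proteases and then starts the cascade towards Spätzle. Control replicates 1 to 4 had 7.24, 4.79, 2.38 and 1.13 normalized counts, which is about 7, 4, 2 and 1 reads. The labelled libraries had 144.2, 256.1, 175.4 and 164.0. The gene was close to the detection limit in the controls and plainly present in each labelled library, with replicate 2 the highest. The means were 3.89 ± 2.71 and 184.9 ± 49.2 (SD, n = 4), a ratio of 47.6-fold and a log2 difference of 5.40 (SE 0.40). With only about 14 control reads (95% Poisson interval 7.65 to 23.5), the ratio is loosely fixed, and it ran from 38.5-fold without control replicate 4 to 66.8-fold without control replicate 1.

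spz (FBgn0003495, chromosome 3R, 27064990 to 27070070, minus strand) encodes the Toll ligand and has 8 annotated transcripts, which the deposited values do not separate. Its normalized count was 23.8, 24.0, 32.1 and 25.9 in control replicates 1 to 4. It was 293.6, 340.2, 288.3 and 238.2 in the labelled libraries. The lowest labelled library was well above the highest control, and the relative spread within the groups was alike, at 14.7% of the mean in controls and 14.4% in labelled libraries. Group means were 26.5 ± 3.89 and 290.1 ± 41.7 (SD, n = 4), 11.0-fold apart, with a log2 difference of 3.40 (SE 0.15).

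Tl (FBgn0262473, chromosome 3R, 26799041 to 26842403, plus strand), the receptor, was the only one of the 10 genes whose labelled libraries all lay below the controls. Its normalized counts were 2741, 2951, 3208 and 3198 in control replicates 1 to 4. They were 2120, 2064, 1878 and 2136 in the labelled libraries. Replicate 3 was the highest control and also the lowest labelled library. The means of 3025 ± 223 and 2050 ± 118 (SD, n = 4) differed by -0.56 on the log2 scale (SE 0.06), which put the controls 1.48-fold above the labelled group. Ligand and receptor thus went opposite ways, and the spz to Tl ratio per kb of transcript was 0.0211 ± 0.00215 in controls and 0.342 ± 0.0556 in labelled libraries.

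The proteins that bind the inner side of the receptor had nearly level transcripts. Myd88 (FBgn0033402, chromosome 2R, 9302823 to 9308722, minus strand), the adaptor with a TIR and a death domain, was at 962.3, 848.5, 858.2 and 894.7 normalized counts in controls and at 908.7, 966.2, 944.6 and 956.1 in labelled libraries. The groups overlapped because control replicate 1 was as high as most labelled libraries. Its means were 890.9 ± 51.6 and 943.9 ± 25.1 (SD, n = 4), with a log2 difference of 0.08 (SE 0.05).

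tub (FBgn0003882, chromosome 3R, 4387742 to 4389813, plus strand), the death-domain adaptor that bridges MyD88 and Pelle, was at 889.1, 936.8, 927.3 and 898.7 normalized counts in controls. It was at 909.2, 1003, 964.2 and 942.3 in labelled libraries. Labelled replicate 1 fell inside the control range and the other three lay just above it. The means were 913.0 ± 22.7 and 954.6 ± 39.3 (SD, n = 4), with a log2 difference of 0.06 (SE 0.04).

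pll (FBgn0010441, chromosome 3R, 27251131 to 27253182, minus strand) encodes Pelle, the kinase related to mammalian IRAK. It was at 567.0, 497.9, 553.0 and 533.8 normalized counts in controls and at 558.6, 515.1, 514.2 and 585.3 in labelled libraries. The ranges were interleaved. Means of 537.9 ± 30.0 and 543.3 ± 34.8 (SD, n = 4) gave a log2 difference of 0.01 (SE 0.06), whose sign turned with quantile normalization (-0.07).

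cact (FBgn0000250, chromosome 2L, 16313036 to 16326207, minus strand), the IkappaB-type inhibitor that holds Dorsal and Dif in the cytoplasm, was at 2517, 2732, 2554 and 2619 normalized counts in controls. It was at 2961, 3185, 3015 and 3066 in labelled libraries. The groups did not overlap, and replicate 2 was the highest of both. Means of 2606 ± 94.3 and 3057 ± 95.5 (SD, n = 4) were 1.17-fold apart, a log2 difference of 0.23 (SE 0.04). In flies cact is also a target of Toll signalling, so that the inhibitor is made anew after it is degraded.

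dl (FBgn0260632, chromosome 2L, 17436830 to 17450364, minus strand), which encodes Dorsal, was at 785.3, 791.9, 920.9 and 806.3 normalized counts in controls. It was at 1291, 1320, 1393 and 1244 in labelled libraries. The lowest labelled library was above control replicate 3, which stood apart from the other controls. Its means of 826.1 ± 63.8 and 1312 ± 62.7 (SD, n = 4) were 1.59-fold apart, with a log2 difference of 0.67 (SE 0.06).

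Dif (FBgn0011274, chromosome 2L, 17413248 to 17433161, minus strand), the Dorsal-related immunity factor, was at 54.3, 216.8, 85.7 and 71.3 normalized counts in control replicates 1 to 4. It was at 1897, 2079, 2105 and 2163 in the labelled libraries. The labelled libraries were close together, with a spread of 5.57% of their mean, while the controls spread over 69.4% of theirs because replicate 2 was far above the other three. The means of 107.0 ± 74.3 and 2061 ± 114.9 (SD, n = 4) gave a 19.3-fold ratio and a log2 difference of 4.47 (SE 0.34). Without control replicate 2 the ratio was 29.3-fold, and the lowest labelled library was still 8.75-fold above that replicate. The excess of control replicate 2 over the other controls equalled 7.10% of the labelled mean for Dif, against -1.55% for PGRP-SA, -1.14% for spz and 0.66% for psh, so the other genes with a large difference did not share it.

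The authors' deposited table, made with their own count model, gave log2 fold changes close to these. In the authors' deposited table the values were 2.55 for PGRP-SA, 5.55 for psh, 3.46 for spz, -0.56 for Tl, 0.23 for cact, 0.67 for dl and 4.27 for Dif. For Myd88, tub and pll the authors' deposited table had 0.08, 0.06 and 0.01.

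Levels of different genes were compared per kb of the longest annotated transcript, a scale that ignores which isoform was made. In control discs cact was the highest of the 10 at a mean of 1106 normalized counts per kb, followed by Tl at 589.7, tub at 455.1, pll at 278.6, Myd88 at 246.6 and dl at 174.9. Then came a wide gap to Dif at 24.9, PGRP-SA at 18.3, spz at 12.4 and psh at 2.36. Neighbours in this order overlapped between libraries for pll and Myd88, for Dif and PGRP-SA, and for PGRP-SA and spz, and all other neighbouring pairs did not. Among the 10 genes in control discs, the receptor, the adaptors and the inhibitor were thus abundant, while spz, PGRP-SA, psh and Dif were scarce. Other genes that act before the receptor were not all scarce. Without scaling by length, GNBP3 was at 3976, modSP at 1260 and SPE at 34.7 normalized counts in controls.

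In libraries labelled ecd-RNAi the order per kb was cact at 1297, Dif at 478.6, tub at 475.9, Tl at 399.6, pll at 281.4, dl at 277.7 and Myd88 at 261.2. The lowest 3 were spz at 136.3, psh at 112.4 and PGRP-SA at 106.8. Neighbours overlapped for Dif and tub, pll and dl, dl and Myd88, spz and psh, and psh and PGRP-SA. Dif was at rank 7 of 10 in controls and at rank 2 in labelled libraries. Its control rank rested on replicate 2, without which Dif averaged 16.4 ± 3.65 per kb (SD, n = 3), at rank 8 below PGRP-SA at 18.7 ± 3.64. Across the 10 genes, the span between the highest and lowest gene narrowed because the low genes were higher.

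**Figure D2:**
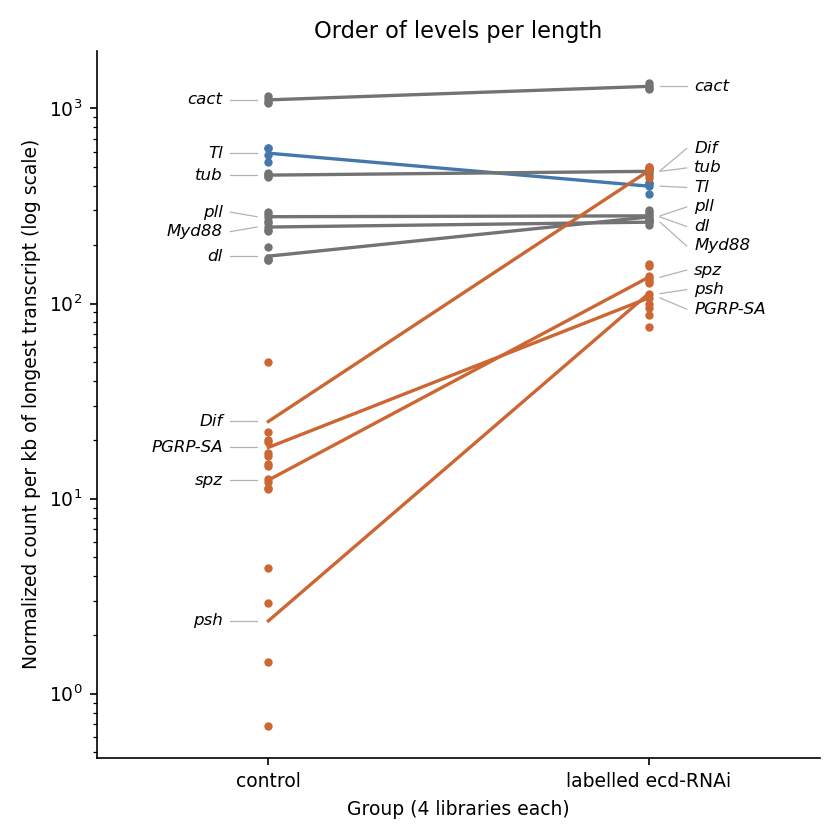
Mean normalized count per kb of the longest transcript (log axis) of the 10 genes in control libraries (left) and libraries labelled ecd-RNAi (right), with a line joining each gene. Dif climbs from 24.9 to 478.6 and past dl, Tl and the adaptors, psh climbs from 2.36 to 112.4, and the lines of Myd88, tub and pll are almost flat.

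Dif and dl share the inhibitor Cactus, and Rel encodes Relish, the NF-kappaB factor of the Imd pathway that carries its own inhibitory domain. The Dif to dl ratio per kb was 0.0758, 0.300, 0.102 and 0.0971 in control replicates 1 to 4. It was 1.61, 1.73, 1.66 and 1.91 in labelled libraries. Dif was thus the minor transcript in each control library and the major one in each labelled library. The mean ratio was 0.144 ± 0.105 in controls and 1.73 ± 0.130 in labelled libraries (SD, n = 4).

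Of the summed level per kb of dl, Dif and Rel, Dif took 7.58% ± 4.29 in controls and 50.7% ± 2.51 in labelled libraries. The share of dl was 56.3% ± 6.60 and 29.4% ± 1.05, and that of Rel 36.1% ± 2.43 and 19.9% ± 2.24. The smaller shares of dl and Rel did not mean lower levels, since the sum of the 3 genes was 313.3 ± 38.5 and 943.9 ± 22.1 normalized counts per kb and both genes were higher in labelled libraries. Relative to their inhibitor, Dif to cact was 0.0221 ± 0.0144 and 0.369 ± 0.0177 per kb, and dl to cact was 0.158 ± 0.0151 and 0.214 ± 0.0126. The transcript of cact stayed above that of Dif and of dl in every library.

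**Figure D3:**
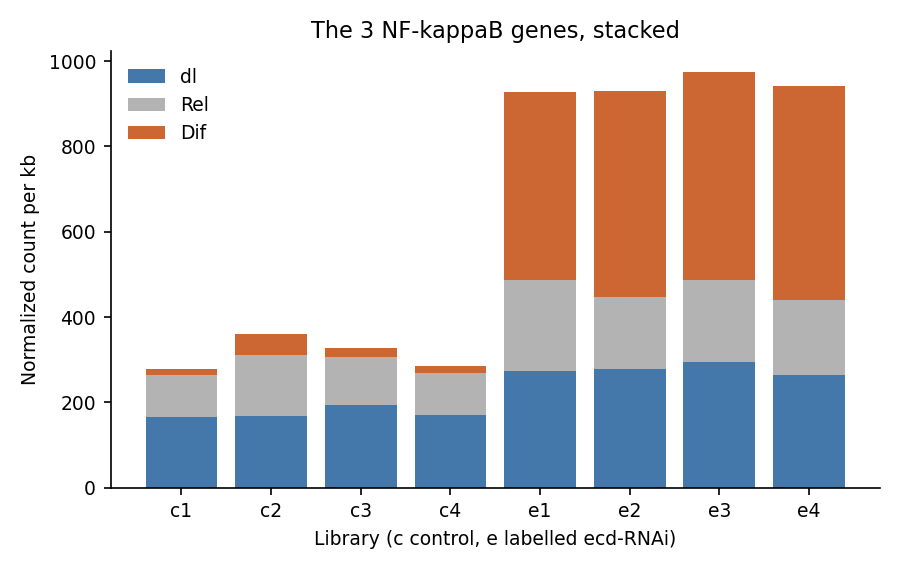
Normalized count per kb of dl, Rel and Dif stacked for each library, control replicates 1 to 4 (c1 to c4) and labelled replicates 1 to 4 (e1 to e4). Dif is a thin slice in the controls, at 7.58% of the sum on average, and the largest slice in each labelled library, at 50.7% on average, on top of a taller stack.

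Genes that act beside PGRP-SA and psh did not move as a block. The list of other recognition proteins, proteases and serpins had 21 rows, of which 15 passed the filter; 5 rose, 6 fell and 4 were not called at a limma adjusted p of 0.05, where 30.8% of all tested genes rose and 31.7% fell. The median log2 difference was 0.13. Among immune proteases, modSP, which relays recognition to the cascade, rose from 1260 ± 48.4 to 1657 ± 33.8 normalized counts (limma adjusted p 9.29e-06). grass, the next protease of that branch, rose from 122.6 ± 6.05 to 198.1 ± 36.8 (limma adjusted p 0.00107). SPE, the protease that cuts Spätzle in immunity, fell from 34.7 ± 9.12 to 11.5 ± 2.43, a log2 difference of -1.50 (SE 0.27, limma adjusted p 0.000739). These immune protease genes therefore went both ways, with modSP and grass higher and SPE lower.

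spirit, a clip-domain protease of the same cascade, fell from 112.9 ± 28.7 to 51.8 ± 18.1 normalized counts (log2 difference -1.16, limma adjusted p 0.00651). GNBP3, a receptor for fungal glucans, fell from 3976 ± 124 to 2671 ± 197 normalized counts (log2 difference -0.58, limma adjusted p 5.67e-06). GNBP1, which works with PGRP-SA, was not called, at a log2 difference of 0.13 (limma adjusted p 0.0533). Spn27A, a serpin that restrains melanization and Toll, fell slightly (log2 difference -0.21, limma adjusted p 0.00159).

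The genes of the embryonic branch, in which Toll patterns the dorsoventral axis, held the largest differences of the list in both directions. pip, a sulfotransferase that marks the ventral side of the egg, fell from 950.9 ± 66.5 to 148.1 ± 36.0 normalized counts (log2 difference -2.71, SE 0.16, limma adjusted p 2.54e-07). wbl, needed for Pipe to reach the Golgi, fell from 1788 ± 75.8 to 270.3 ± 109 (log2 difference -2.81, SE 0.24, limma adjusted p 3.48e-06). ea, the protease Easter that cuts Spätzle in the embryo, rose from 204.1 ± 10.1 to 484.5 ± 11.2 (log2 difference 1.24, SE 0.06, limma adjusted p 7.22e-08). gd, an upstream protease of that cascade, rose from 12.6 ± 5.12 to 35.4 ± 9.12 (limma adjusted p 0.00275), while snk, the protease between them, was at or below the detection limit in all libraries.

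Of the 5 other Spätzle family ligands, 2 rose, 2 fell and 1 was not called, with a median log2 difference of 0.13. Over all tested genes, 30.8% rose and 31.7% fell. spz3 rose from 178.5 ± 15.5 to 475.0 ± 84.8 normalized counts (log2 difference 1.39, SE 0.12, limma adjusted p 4.74e-06). spz4 rose from 46.8 ± 4.43 to 119.2 ± 10.3 (log2 difference 1.33, SE 0.12, limma adjusted p 6.96e-06). spz6 fell from 252.2 ± 16.6 to 131.0 ± 23.2 (log2 difference -0.96, limma adjusted p 0.000128). NT1, a neurotrophin-like ligand, fell from 131.1 ± 10.8 to 90.5 ± 23.3 (log2 difference -0.56, limma adjusted p 0.0191), and spz5 was at 35.1 ± 8.32 and 37.9 ± 6.11 (limma adjusted p 0.633).

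The 2 other Toll-type receptors that passed the filter were lower, as Tl was. Of 7 rows, 2 passed the filter and both fell, where 31.7% of all tested genes fell and 30.8% rose. With limma none rose and 0 had an unadjusted p under 0.05 in the upward direction, which follows from both being lower. The authors' deposited table called 0 of the rows higher and 3 lower. Toll-7, known for a part in antiviral responses, fell from 8229 ± 279 to 5506 ± 350 normalized counts (log2 difference -0.58, SE 0.05, limma adjusted p 2.84e-06). Tollo, also called Toll-8, fell from 8081 ± 263 to 4466 ± 300 (log2 difference -0.86, SE 0.05, limma adjusted p 2.38e-07). The remaining rows were near or at 0, with 3 below the filter at no more than 8.38 normalized counts in any library and 2 at 0 throughout. The receptor gene 18w had no matched row, so its level is not known here.

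Of 17 intracellular regulators of Toll signalling, 4 rose, 11 fell and 2 were not called, with a median log2 difference of -0.15, beside 30.8% of all tested genes that rose and 31.7% that fell. With quantile normalization 5 rose and 6 fell. cactin, which encodes a binding partner of Cactus, rose from 430.6 ± 16.6 to 753.7 ± 26.4 normalized counts (log2 difference 0.81, SE 0.05, limma adjusted p 3.61e-07). Sarm, a TIR-domain NADase, rose from 3643 ± 225 to 5880 ± 625 (log2 difference 0.69, limma adjusted p 2.2e-05). Hrs, an endosomal sorting protein that promotes Toll signalling, rose from 678.9 ± 16.8 to 1011 ± 84.5 (log2 difference 0.57, limma adjusted p 1.45e-05). tamo, a regulator of the nuclear import of Dorsal, fell from 659.5 ± 19.0 to 431.1 ± 39.1 (log2 difference -0.62, limma adjusted p 2.2e-05). Most differences in this list were small beside those of the upstream genes and Dif, which were picked with their values known.

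**Figure D4:**
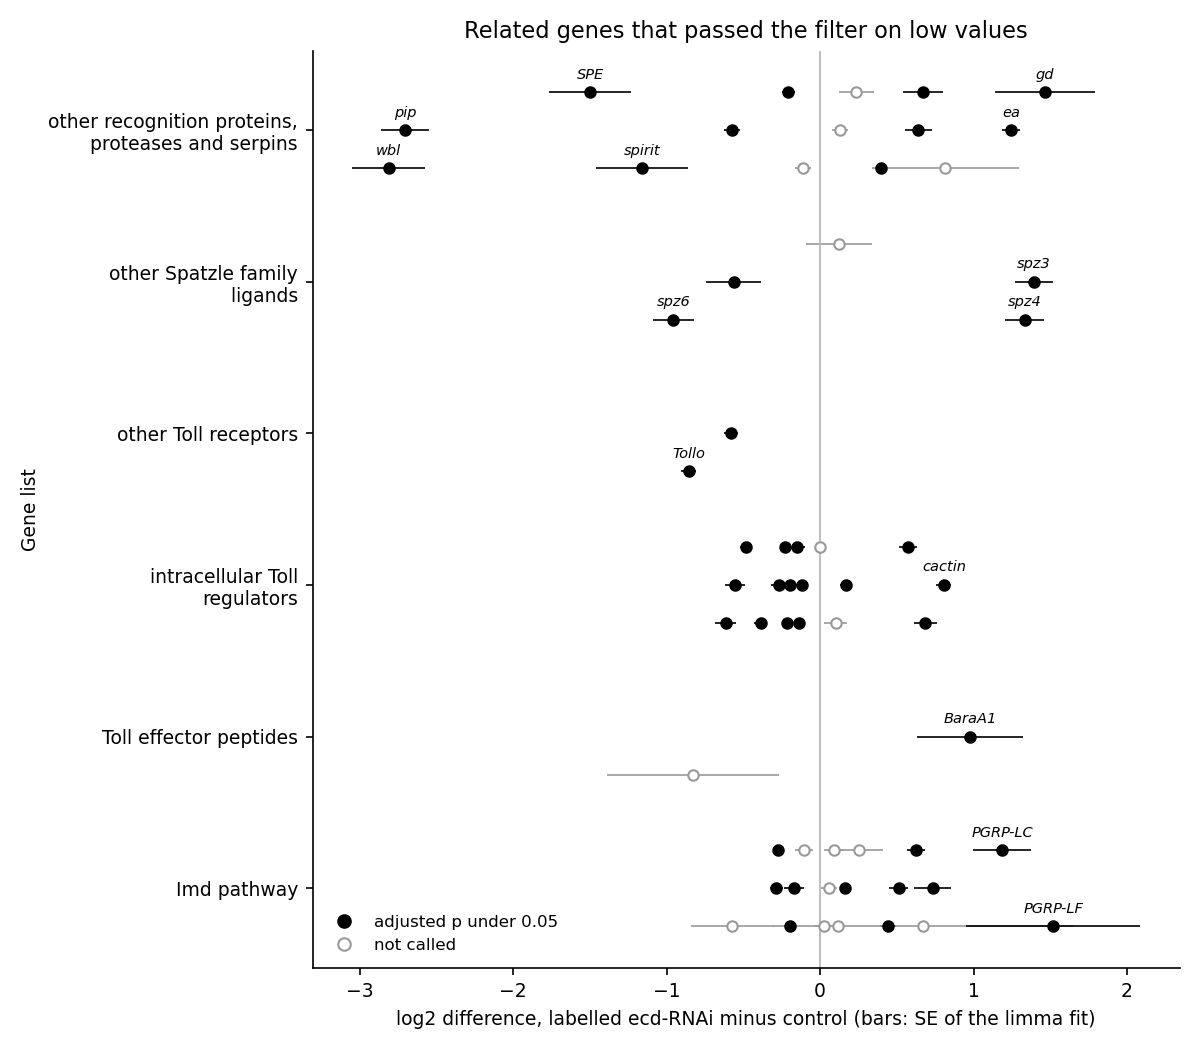
The log2 difference (labelled ecd-RNAi minus control, bars the SE of the limma fit) of each gene that passed the filter on low values, in 6 lists related to the 10 pathway genes. Filled points had an adjusted p under 0.05; proteases and Spätzle ligands spread to both sides, both Toll-type receptors sit left of 0, and 2 Toll effector peptides and no Imd effector peptide passed the filter.

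The peptides that Toll signalling is best known to induce were nearly absent in both groups. Of 24 rows for Toll effector peptides, 8 were at 0 in all libraries, 14 were below the filter with no value above 11.1 normalized counts, and 2 passed it. Summed over the list, controls 1 to 4 held 45.7, 29.0, 38.7 and 53.1 normalized counts. The labelled libraries held 38.5, 38.3, 66.1 and 51.9, so the groups overlapped. Bomanins and Daisho peptides, short peptides secreted after infection, were at or near 0.

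Drs, which encodes the antifungal peptide Drosomycin, was at 15.2, 12.96, 14.2 and 28.0 normalized counts in controls and 5.20, 2.98, 20.9 and 17.6 in labelled libraries. The groups overlapped and the gene was not called (log2 difference -0.83, SE 0.56, limma adjusted p 0.224). BaraA1, a Baramicin gene, rose from 9.57 ± 2.33 to 20.7 ± 9.66 normalized counts (log2 difference 0.98, SE 0.35, limma adjusted p 0.0308), led by labelled replicate 3 at 35.2. That call was lost without control replicate 2 (adjusted p 0.0571), control replicate 3 (0.0761) or labelled replicate 3 (0.0986). The control mean of BaraA1 was under the filter of 10, so the gene entered the test only through its labelled libraries. BaraA1 has a near-identical copy that could share its reads, and that copy was not analysed here.

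The Imd pathway, the other NF-kappaB route of the fly, was listed for comparison with 25 genes. Of 19 that passed the filter, 7 rose, 4 fell and 8 were not called, while 30.8% of all tested genes rose and 31.7% fell. The median log2 difference over the Imd pathway was 0.12. PGRP-LC, its membrane receptor, rose from 39.0 ± 9.06 to 88.9 ± 12.04 normalized counts (log2 difference 1.19, SE 0.19, limma adjusted p 0.000332). PGRP-LF, an inhibitory receptor, rose from 5.66 ± 4.19 to 15.9 ± 6.16 (limma adjusted p 0.0386), though its libraries overlapped and the call was lost without control replicate 2 (adjusted p 0.0775) or 4 (0.0836) or labelled replicate 4 (0.0666). Rel rose from 397.4 ± 72.3 to 656.3 ± 71.3 (log2 difference 0.73, limma adjusted p 0.000425), and IKKbeta, which acts on Relish, from 597.3 ± 44.3 to 921.3 ± 30.9 (log2 difference 0.63, limma adjusted p 7.05e-06). The adaptor imd was not called (log2 difference 0.03, limma adjusted p 0.759). Peptide genes of that pathway were as scarce as those of Toll: of 11 rows none passed the filter, 2 were at 0 throughout, and the highest value was 11.7 normalized counts, for AttB. Their sum was 9.12, 14.1, 14.0 and 14.5 normalized counts in controls and 6.45, 11.7, 16.5 and 13.7 in labelled libraries.

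Fat body and blood cells (hemocytes) both express Toll pathway genes and can adhere to dissected discs, so markers of both were set beside the 10 genes. Of 12 fat body markers, 8 passed the filter, 0 rose and 2 fell with limma, with 0 at an unadjusted p under 0.05 upward. Over all tested genes, 30.8% rose and 31.7% fell with limma. The authors' deposited table called 0 of the markers higher and 1 lower. Fbp1, a storage protein receptor, was at 561.1 ± 284 and 239.0 ± 193 normalized counts, and bmm, a lipase, at 163.1 ± 15.2 and 89.8 ± 44.9. Both calls were lost without control replicate 2 or 4 (adjusted p 0.0520 to 0.122), and that of Fbp1 also without control replicate 3 or labelled replicate 2 or 3. The summed fat body markers were 1365, 8749, 2319 and 1934 normalized counts in controls and 2030, 793, 1204 and 5993 in labelled libraries. Control replicate 2, the control with the most Dif, was also the highest in this sum, and the 4 controls had the same order in both. The mean sum was 3592 ± 3460 in controls and 2505 ± 2382 in labelled libraries (SD, n = 4), with overlapping groups. Without control replicate 2 the control mean was 1873 ± 480 (SD, n = 3), below the labelled mean. The labelled mean in turn leaned on replicate 4 at 5993, against 793 to 2030 in the other labelled libraries. The direction between the groups thus depends on control replicate 2 and labelled replicate 4. All labelled libraries had more Dif than control replicate 2. Whether fat body RNA had a part in the level of Dif in control replicate 2 was not tested. PGRP-SA, psh and spz were not highest in that library.

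Of 16 hemocyte markers, 14 passed the filter, 4 rose, 5 fell and 5 were not called. Over all tested genes, 30.8% rose and 31.7% fell. The authors' deposited table called 5 of the markers higher and 2 lower. Without 1 library, 2 to 5 fell. Their sum was 23420 to 27800 normalized counts in controls and 10860 to 14310 in labelled libraries, mostly Ppn, an extracellular matrix gene that fell from 20748 ± 1455 to 7958 ± 1061. Hml, a defining marker of plasmatocytes, was at 609, 650, 643 and 444 in controls and 1396, 589, 905 and 945 in labelled libraries, and it rose (log2 difference 0.66, limma adjusted p 0.0265) with groups that overlapped. That call was lost without control replicate 4 (adjusted p 0.0778), labelled replicate 1 (0.0568), 3 (0.0508) or 4 (0.0501). NimC1, a plasmatocyte surface receptor, rose from 83.6 ± 8.97 to 139.9 ± 36.9 (log2 difference 0.71, limma adjusted p 0.00531; 0.0699 with quantile normalization). PPO1 and PPO2, prophenoloxidases of crystal cells, were at 191.8 ± 99.3 and 186.3 ± 81.1 normalized counts in controls and at 66.4 ± 54.5 and 74.7 ± 55.0 in labelled libraries. Their calls (limma adjusted p 0.0491 and 0.0382) were lost without control replicate 1, 2 or 3 or labelled replicate 2 or 3. ItgaPS4, an integrin subunit, rose from 11.0 ± 5.84 to 49.6 ± 18.3 (log2 difference 2.18, limma adjusted p 0.00211). Sr-CI rose from 38.2 ± 7.42 to 100.1 ± 47.7 (log2 difference 1.25, limma adjusted p 0.00785), with groups that overlapped. lz, a transcription factor of crystal cells, was below the filter, at 0 to 2.38 normalized counts in controls and 4.23 to 19.9 in labelled libraries, which did not overlap. No marker of this list was at 0 in all libraries. Among the labelled libraries, Hml was highest in replicate 1 and lowest in replicate 2, while psh was lowest in replicate 1 and highest in replicate 2. NimC1, Pxn, eater, He, Sr-CI, NimB2, PPO1 and PPO2 had the same highest and lowest labelled replicates as Hml. ItgaPS4, lz, gcm and PGRP-SA were highest in replicate 3 and lowest in replicate 4. Among the rest, srp and ush were highest in replicate 1 and lowest in replicate 3, and crq was highest in replicate 4 and lowest in replicate 2. Ppn was highest in replicate 2 and lowest in replicate 3. Many of the markers thus shared the order of Hml at its ends, and the others did not. The part of hemocyte RNA in the levels of PGRP-SA, psh, spz or Dif was not tested.

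Dif varied among the controls far more than most of the 10 genes, which allowed a search for genes that deviated with it. Likeness was the Pearson correlation of log2(value + 1) with Dif after the mean of each group was subtracted, over 8 libraries, and it is given as a description that rests largely on control replicate 2. The 5 genes most like Dif were Cyp6d2 (r = 0.99), AOX1 (0.99), rdog (0.98), lncRNA:CR43144 (0.98) and obe (0.98). Cyp6d2, a cytochrome P450, was at 41.3, 130.5, 57.1 and 48.5 normalized counts in controls and at 1996 on average in labelled libraries. AOX1, an aldehyde oxidase, was at 10.4, 156.0, 30.9 and 19.2 in controls and at 1587 on average in labelled libraries. Each of the 5 genes was highest among the controls in replicate 2, which largely follows from how they were picked. Each also had a higher mean in the labelled group. Over the 8 fat body markers past the filter the same measure ran from 0.01 for bmm and 0.40 for Fbp1 to 0.77 for Lsp1beta and 0.79 for Lsp2. Among the other pathway genes it was 0.72 for cact, 0.49 for tub, 0.11 for psh, 0.06 for Tl and 0.04 for PGRP-SA. It was below 0 for dl (-0.07), spz (-0.13), pll (-0.61) and Myd88 (-0.67).

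**Figure D5:**
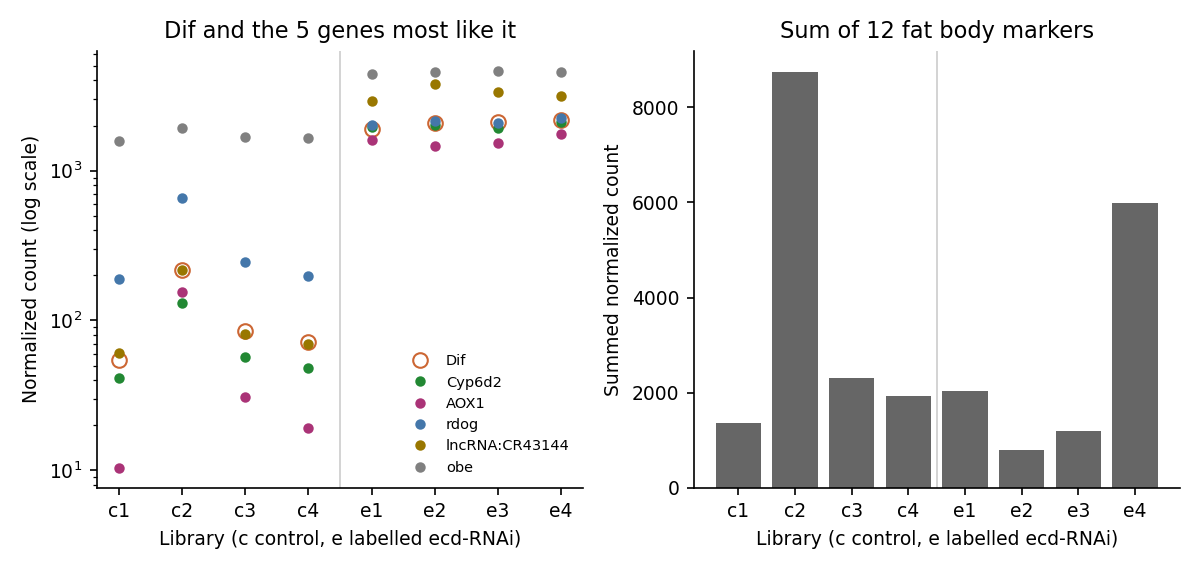
Left, normalized count (log axis) of Dif (open circles) and the 5 genes most like it in control libraries c1 to c4 and labelled libraries e1 to e4; right, the summed normalized count of 12 fat body markers in the same libraries. The 6 genes share a peak in c2 among the controls, on which their likeness largely rests. All 6 are high in the labelled libraries, whereas the fat body sum is highest in c2 and e4.

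The genomic surroundings of the 10 genes were described to see whether nearby genes had similar differences. Of the 21 nearest protein-coding neighbours, 15 passed the filter, 4 rose, 6 fell and 5 were not called, with a median log2 difference of -0.10. Over all tested genes, 30.8% rose and 31.7% fell. Dif and dl lie beside each other on chromosome 2L, 3668 bases apart on the same strand, with CG5043 and CG33928 between them, both below the filter. Of the neighbours of Dif, Rsph9 was at 0 in all libraries and CG5043 was at 3.23 ± 2.89 and 7.67 ± 0.683 normalized counts. CG5050, on the other side of dl, rose from 15.8 ± 2.31 to 24.2 ± 3.43 (limma adjusted p 0.0432), a call that was lost without any 1 library other than control replicate 2. psh lies 714 bases from Hayan, a related clip-domain protease gene that also acts in melanization, and the pair differed. Hayan was at 318.2 ± 35.5 and 375.8 ± 49.7 normalized counts and was not called (log2 difference 0.24, limma adjusted p 0.0926), so the psh to Hayan ratio per kb was 0.0191 ± 0.0152 in controls and 0.722 ± 0.170 in labelled libraries.

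CG1572, on one side of PGRP-SA at 2988 bases, rose from 211.8 ± 9.52 to 495.3 ± 21.5 normalized counts (log2 difference 1.22, limma adjusted p 9.4e-08). Polr2A, 20 bases away on the other side, was not called (log2 difference -0.06, limma adjusted p 0.258). CG14257, beside spz at 5799 bases, fell from 559.5 ± 44.2 to 190.1 ± 31.3 (log2 difference -1.56, limma adjusted p 1.38e-06), the opposite direction to spz. Nep5, 790 bases from spz on the other side, was below the filter, at 0 to 1.18 normalized counts in controls and 2.46 to 5.19 in labelled libraries, with no overlap.

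Among the neighbours past the filter, the largest log2 difference stood beside Myd88, whose own libraries overlapped. CG13954, 573 bases from Myd88, rose from 93.8 ± 23.1 to 675.8 ± 75.4 normalized counts, 7.21-fold (log2 difference 2.86, SE 0.15, limma adjusted p 1.28e-07), and Drep2 on the other side of Myd88 fell (log2 difference -0.83, limma adjusted p 0.00444). Lerp, 58 bases from Tl, rose (log2 difference 0.40, limma adjusted p 7.57e-05) where Tl was lower. Of the remaining called neighbours, all fell: woc beside pll (log2 difference -0.58), CG14646 and Cont beside tub (-0.32 and -0.11), and CG4278 beside cact (-0.17). Under quantile normalization Cont was at 0.07, and the call of CG4278 was lost without control replicate 4 or labelled replicate 2 or 3.

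Some exons of the 10 genes overlap a gene on the opposite strand, and whether strand was used in counting is not given in the sources used here, so reads in such stretches are uncertain. Dif shares 252 exonic bases, 4.43% of its own, with CG15141, which fell from 1096 ± 38.9 to 916.6 ± 23.5 normalized counts (log2 difference -0.26, limma adjusted p 0.000343). cact shares 62 bases (1.87%) with fzy, which fell (log2 difference -0.32, limma adjusted p 0.000155), and pll shares 31 bases (1.61%) with TfIIA-L, which was not called (log2 difference -0.06, limma adjusted p 0.261). spz shares 5 bases with CG43935, which was at 0 in all libraries. The overlapping partner of Dif was lower where Dif was higher.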

How the data were processed

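Total RNA of wing discs was sequenced in 8 libraries, 4 per group. The authors deposited normalized counts, a signal for each gene or transposable element insertion; the table held 23932 rows, 18354 of them genes. A second table deposited by the authors gives, per the file headers, the log2 fold change and its standard error, the Wald score, and raw and adjusted p-values. FastQC, cutadapt 3.5, kallisto 0.46.1, DESeq2 1.34.0 and the BDGP6 assembly are named, per the submitters' processing notes; their settings, strand use included, are not given in the sources used. Normalization between libraries that differ in rRNA share or in the number of changed genes can shift all log2 differences together.

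Low values were near but not at multiples of 1 read, so no count model was run, and depths are approximate. Groups were compared with limma 3.58.1 (R 4.3.3; lmFit and eBayes with trend) by a two-sided test of log2(normalized count + 1), without covariates, in 9380 genes whose mean over 8 libraries reached 10. This design gave the adjusted p-values (Benjamini-Hochberg over all tested genes, threshold 0.05). It was tested on simulated data. "N-fold" is a ratio of group means; log2 differences use a pseudocount of 1 and understate low genes. Levels per kb use the longest annotated transcript, and neighbours and overlaps come from the BDGP6 annotation (1-based).

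The 10 genes, the 10 related or marker lists and the tests were chosen with earlier results of these data known. The genes named were all 10, up to 4 called genes per list with the largest log2 difference, every called neighbour and the 5 genes most like Dif; others (such as modSP, grass, GNBP1, GNBP3, Spn27A, snk, Hayan, Drs, Rel, imd, Hml, NimC1 and nub) were named for their role after values were seen. Rows for 18w and BaraA2 were not matched and are not analysed here. Alternatives were pseudocounts of 0.5 and 5, no filter and a mean of at least 50, quantile normalization, recentring on the median, scaling on protein-coding genes, a replicate block, the authors' deposited comparison and leaving out each library.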

Additional observations from a re-analysis of the deposited data

Results flagged for a closer look

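Of 28 single-value checks within a group of 4 libraries, 3 values stood far from the other libraries of their group, where chance gives about 1 in 20. dl in control replicate 3 was at 920.9 normalized counts, against 785.3 to 806.3 in the other controls, and it stayed below every labelled library. The Dif to dl ratio per kb in control replicate 2 was 0.300, against 0.0758 to 0.102 in the other controls. The summed fat body markers in the same library were at 8749 normalized counts, against 1365 to 2319. The ratio and the fat body sum are thus high in 1 and the same control library; the part of one in the other was not tested.

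An insertion of the roo element, a retrotransposon, inside the Tl gene lies outside the comparisons of genes. It was at 0 in all 4 controls and at 13.9 and 10.1 normalized counts in labelled replicates 2 and 3, and at 0 in labelled replicates 1 and 4. It shares no exonic base with Tl and lies on the opposite strand. Reads of a repeated element cannot be placed on 1 copy with certainty.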

How the results depend on the processing

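Of 170 recomputed log2 differences of the 10 pathway genes, 165 moved by less than 1 SD of the replicates. Among genes whose libraries did not overlap, 0 changed sign. Both counts include outcomes fixed in advance. Changing the filter or adding the replicate block cannot move these differences. Leaving out a library or changing the pseudocount cannot turn the sign where libraries do not overlap. The differences that moved more were psh, 4.44 with a pseudocount of 5, and with quantile normalization spz (3.16), Tl (-0.43), pll (-0.07) and cact (0.37). Over all alternatives the differences ran from 4.21 to 4.87 for Dif, 4.44 to 5.71 for psh, 2.16 to 2.62 for PGRP-SA and 0.64 to 0.72 for dl. With 1 library left out, 6 to 7 of the genes were wholly higher and 1 wholly lower; the seventh was Myd88 without control replicate 1 and tub without labelled replicate 1. The median over all genes moved by -0.06 with quantile normalization and 0.03 with protein-coding scaling.

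Counts in short lists moved by single genes. With no filter, 4 other Toll receptors and 2 Toll effector peptides fell, 1 Imd effector peptide rose, 1 fat body marker fell and 1 wing disc marker rose. Intracellular regulators that fell numbered 6 with quantile normalization. With a mean of at least 50 no Toll effector peptide could be tested, since their highest value in any library was 35.2 normalized counts. With quantile normalization 0 of these peptides rose, and 0 to 1 did with 1 library left out. Hemocyte markers that fell numbered 3 with protein-coding scaling, 2 in the authors' deposited table and 2 to 5 with 1 library left out. Fat body markers that fell numbered 1 in the authors' deposited table and 0 to 2 with 1 library left out; wing disc markers that rose numbered 1 in that table and 1 to 2 with 1 library left out. The cause was not tested.

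The groups share replicate numbers, but libraries of the same number did not deviate together (correlations 0.053, -0.052, -0.040 and -0.017). The numbers were therefore not used as pairs in the main comparison. These correlations cannot show whether the libraries were collected or prepared in pairs. With a replicate block, 2796 genes rose and 2883 fell, against 2889 and 2970 without it, 0 Toll effector peptides rose and 1 fat body marker fell. Depth limits psh in controls most.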
